A study of Homo sapiens with 3 samples.

Results

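The 9 genes described here are NRF2, its inhibitor KEAP1 and 7 antioxidant genes that NRF2 is known to activate. They were chosen by symbol in the deposited expression table: NFE2L2 (the gene of NRF2), KEAP1, GCLC, GCLM, NQO1, HMOX1, TXNRD1, SRXN1 and TXN. Each symbol matched 1 of the 60930 entries, and all 9 reached the mean of 1 TPM that a gene needed to be among the 13637 genes tested.

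The study used PC3 cells, an androgen-independent human prostate cancer line, to ask how gene expression differed when the deubiquitinase USP16 was knocked down. There were 3 RNA-seq libraries of total RNA: 1 from cells carrying the vector control (shCON) and 1 from cells carrying each of 2 short hairpins against USP16 (shUSP16#1 and shUSP16#2). The hairpins were carried by the pLKO.1 vector and stable cells were selected with puromycin, and whether these were pools or clones is not given in the sources used here. With 1 library per condition, no difference has a replicate check and no test across samples was possible.

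NRF2 is a transcription factor that binds antioxidant response elements together with small MAF proteins. In unstressed cells KEAP1 holds NRF2 and presents it to a CUL3 ubiquitin ligase for degradation, so NRF2 activity is set largely at the protein level and is not read directly from NFE2L2 mRNA. Its targets make glutathione, regenerate thioredoxin and peroxiredoxins, supply NADPH and detoxify quinones and heme.

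The hairpin sequences are shown because both comparisons rest on them. In the antisense strands the capitals mark bases 2 to 8, the seed.
shUSP16#1 sense: gccagaagaaatcatgtttat
shUSP16#1 antisense: aTAAACATgatttcttctggc
shUSP16#2 sense: cggtgatattccacaagattt
shUSP16#2 antisense: aAATCTTGtggaatatcaccg
On GRCh38, shUSP16#1 matched the 3′ untranslated region of USP16 at chr21:29054296-29054316, on the forward strand in exon 19. shUSP16#2 matched coding sequence across a splice junction, at chr21:29053942-29053958 in exon 18 and chr21:29054066-29054069 in exon 19. The complement of the first seed, ATGTTTA, occurred in the 3′ untranslated regions of 2 of the 9 genes, once in GCLC and at 2 places in GCLM, against 2234 of 11197 tested protein-coding genes (19.95%). The complement of the second seed, CAAGATT, occurred in 0 of the 9 and in 1149 of 11197 tested genes (10.3%). These are matches of letters, and whether the hairpins act on GCLC or GCLM directly was not tested.

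USP16 (ENSG00000156256) was at 19.9 TPM in shCON, 3.5 TPM with shUSP16#1 and 1.08 TPM with shUSP16#2, which is 17.6% and 5.42% of the control. The epithelial markers KRT8, KRT18, KRT19, EPCAM and CDH1 lay between 46.4 and 958 TPM in every library. The luminal prostate markers KLK3 and KLK2 were listed at 0, and of the 4 leukocyte markers PTPRC, CD3E and CD14 were at 0.75 TPM or less while CD68, which lysosomes of other cells also carry, was at 42.2 TPM in shCON, 34.2 TPM with shUSP16#1 and 31.7 TPM with shUSP16#2. The summed TPM of the 3 endothelial markers was 1.39 or less in every library and that of the 4 fibroblast markers 10.96 or less. The part of other cells in the levels of the 9 genes was not tested. At least 1 TPM was reached by 13763 names in shCON, 13701 with shUSP16#1 and 12984 with shUSP16#2. TPM is scaled to the same total in each library and keeps no record of depth, so depth is unknown and no interval is given. Changes are differences in log2(TPM + 1) from the control, which makes those of genes with few TPM look smaller than their ratios. The 13637 tested genes had a median change of -0.17 with shUSP16#1 and -0.37 with shUSP16#2. In bulk RNA, fewer cells of a type and less RNA per cell cannot be told apart.

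The antioxidant response element bound by NRF2 has the core TGACNNNGC, and promoter sequence was searched for it to show where the genes carry these letters. RefSeq promoters (GRCh38.p14, from 250 bases before to 50 after a start) covered 8 of the 9 genes with 11 promoters, and HMOX1 had no entry. The core was found on either strand in 4 of the 11 promoters, in GCLM, KEAP1 and TXNRD1. It was held by 13.3% of all 35116 RefSeq promoters and by 14.5% of the 13889 promoters of tested genes. The windows are written along the strand of the gene, with the core in capitals. A core on the opposite strand is shown as its reverse complement.
GCLM: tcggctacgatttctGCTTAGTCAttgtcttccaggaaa
KEAP1 nearer the start: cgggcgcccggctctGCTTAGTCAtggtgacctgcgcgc
KEAP1 farther from the start: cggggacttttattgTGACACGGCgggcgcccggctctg
TXNRD1 first start: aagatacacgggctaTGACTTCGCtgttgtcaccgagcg
TXNRD1 second start: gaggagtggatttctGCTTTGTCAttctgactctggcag
The GCLM window lies at chr1:93909441-93909479 on the reverse strand, with the core at positions -34 to -26 from the start, where the base before the start is -1. The KEAP1 windows lie at chr19:10502779-10502817, with the core at -31 to -23, and at chr19:10502802-10502840, with the core at -54 to -46, both on the reverse strand. The TXNRD1 windows lie on the forward strand at chr12:104215665-104215703, with the core at -99 to -91 from its first start, and at chr12:104286915-104286953, with the core at -102 to -94 from its second. TXNRD1 holds a further match across its first start. GCLM and the nearer KEAP1 window carry the same 9 letters, GCTTAGTCA. GCLM and TXNRD1 were lower under both hairpins, while KEAP1 was near the control level, so genes with and without the core stood among both the lower genes and the others. No match in the promoters of GCLC, NFE2L2, NQO1, SRXN1 and TXN says only that these letters are not in these windows.

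Of the 9 genes, 5 were at least 1.5-fold lower under both hairpins on the log2(TPM + 1) scale: NFE2L2, GCLC, GCLM, TXNRD1 and SRXN1. HMOX1 was the 1 gene at least 1.5-fold higher under both, and KEAP1, NQO1 and TXN passed in neither direction. Among all tested genes 20.8% were lower and 4.03% higher by this rule. The same 5 lower and 1 higher were found for each hairpin taken singly, against 23.2% lower and 8.72% higher of all genes with shUSP16#1 and 38.5% and 7.32% with shUSP16#2. By any amount, 7 of the 9 were lower under both hairpins, against 57.2% of all tested genes. The median change of the 9 genes was -0.62 with shUSP16#1 and -0.61 with shUSP16#2, or -0.45 and -0.25 once the median of all genes in the same library pair was taken off. Their summed level was 938 TPM in shCON, 651 TPM with shUSP16#1 and 703 TPM with shUSP16#2. Both comparisons use the same shCON library, so an error in it would move both in the same direction.

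**Figure D1:**
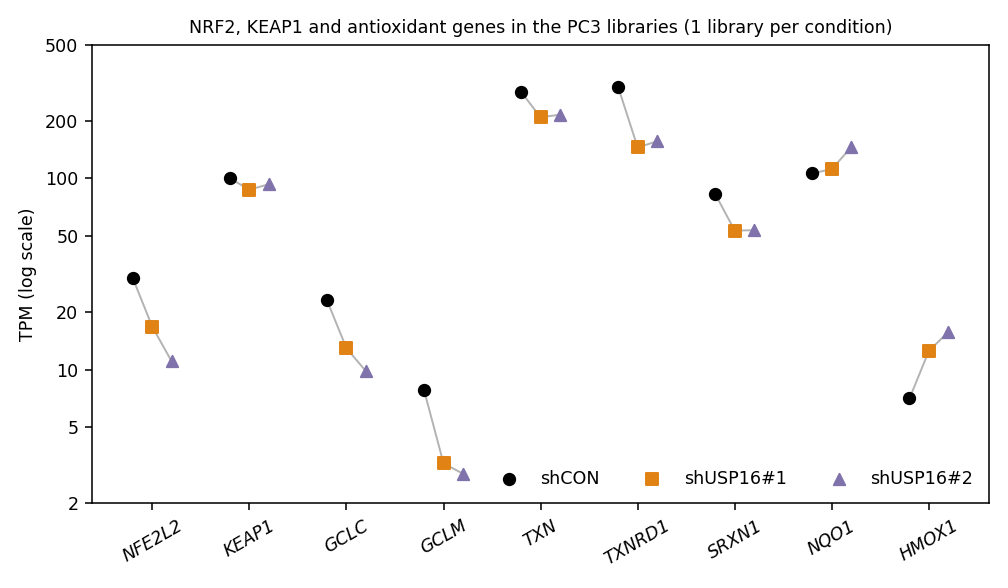
TPM of each of the 9 genes on a log axis, with 1 point per library (shCON, shUSP16#1 and shUSP16#2) and no error bars because each condition had 1 library. TXN and TXNRD1 sit at the top in every library, and HMOX1 moves from the lowest place in shCON, 7.07 TPM, to above GCLM under both hairpins.

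The regulators were NFE2L2 and KEAP1. NFE2L2 (ENSG00000116044, chr2:177227595-177392697, reverse strand) encodes NRF2 itself and was at 30.01 TPM in shCON, 16.8 TPM with shUSP16#1 and 11.0 TPM with shUSP16#2. Both hairpin libraries were below the control and shUSP16#2 was the lowest, with changes of -0.80 and -1.36. KEAP1 (ENSG00000079999, chr19:10486120-10503741, reverse strand), the adaptor that hands NRF2 to CUL3, was at 99.97 TPM in shCON, 87.2 TPM with shUSP16#1 and 93.1 TPM with shUSP16#2. Its changes of -0.19 and -0.10 were the smallest in size of the 9 genes on the mean of both hairpins. The TPM of NFE2L2 divided by that of KEAP1 was therefore 0.30 in shCON, 0.192 with shUSP16#1 and 0.119 with shUSP16#2. NFE2L2 shares exon positions with AGPS, a gene of ether lipid synthesis on the opposite strand, which was at 31.5, 14.8 and 14.9 TPM in the same order. Whether the counting used strand is not given in the sources used here, so reads of NFE2L2 and AGPS in the shared stretch cannot be told apart.

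The glutathione genes were GCLC and GCLM, the catalytic and modifier subunits of glutamate-cysteine ligase, which catalyses the rate-limiting step of glutathione synthesis. GCLC (ENSG00000001084, chr6:53497341-53616970, reverse strand) was at 23.0 TPM in shCON, 12.9 TPM with shUSP16#1 and 9.83 TPM with shUSP16#2. It stood at 56.2% and 42.7% of the control, with changes of -0.79 and -1.15. GCLM (ENSG00000023909, chr1:93885205-93909456, reverse strand) was at 7.8 TPM in shCON, 3.24 TPM with shUSP16#1 and 2.86 TPM with shUSP16#2. Its changes were -1.05 and -1.19, and it was the 1 member at least 2-fold lower on the log2(TPM + 1) scale under both hairpins, against 4.60% of all tested genes. No member was 2-fold higher under both, against 1.14%. Both subunits were thus lower in both hairpin libraries, and the ratio of GCLC to GCLM was 2.95 in shCON, 3.99 with shUSP16#1 and 3.44 with shUSP16#2. GCLC overlaps the non-coding genes AL033397.1 and AL033397.2, which were at 0.08 TPM or less in every library.

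The thioredoxin genes were TXN, TXNRD1 and SRXN1. Thioredoxin (TXN, ENSG00000136810, chr9:110243811-110256640, reverse strand), which reduces disulfides in other proteins, was at 282 TPM in shCON, 208 TPM with shUSP16#1 and 215 TPM with shUSP16#2. Its changes of -0.44 and -0.39 were below 1.5-fold. Thioredoxin reductase 1 (TXNRD1, ENSG00000198431, chr12:104215779-104350305, forward strand), the selenoenzyme that uses NADPH to recycle thioredoxin, was at 299 TPM in shCON, 145 TPM with shUSP16#1 and 156 TPM with shUSP16#2. It had the highest level of the 9 genes in the control and was about equally low under both hairpins, with changes of -1.04 and -0.93. The ratio of TXN to TXNRD1 was 0.944 in shCON, 1.44 with shUSP16#1 and 1.38 with shUSP16#2, so TXNRD1 ranked above TXN in the control and below it in both hairpin libraries. Sulfiredoxin (SRXN1, ENSG00000271303, chr20:646615-653370, reverse strand), which restores over-oxidised peroxiredoxins, was at 82.5 TPM in shCON, 53.3 TPM with shUSP16#1 and 53.6 TPM with shUSP16#2. Its changes of -0.62 and -0.61 were only just past the 1.5-fold line, at 0.58 on this scale. The 7 TXN pseudogenes found by name summed to 0.98 TPM in shCON and were listed at 0 under both hairpins.

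The remaining antioxidant genes were NQO1 and HMOX1. NQO1 (ENSG00000181019, chr16:69706996-69726951, reverse strand), a quinone reductase that uses NADPH and is a common marker of NRF2 activity, was at 106 TPM in shCON, 112 TPM with shUSP16#1 and 145 TPM with shUSP16#2. Neither hairpin library was below the control, and the changes were 0.07 and 0.45. Heme oxygenase 1 (HMOX1, ENSG00000100292, chr22:35380361-35394214, forward strand), which breaks down heme and is repressed by BACH1, was at 7.07 TPM in shCON, 12.6 TPM with shUSP16#1 and 15.7 TPM with shUSP16#2. It was at 178% and 222% of the control, with changes of 0.75 and 1.05, at percentiles 94.5 and 97.5 of all tested genes. The ratio of NQO1 to GCLC was 4.61 in shCON, 8.64 with shUSP16#1 and 14.8 with shUSP16#2. For HMOX1 and GCLM it was 0.906, 3.87 and 5.50, so the balance among these NRF2 targets differed in both hairpin libraries from that in the control.

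**Figure D2:**
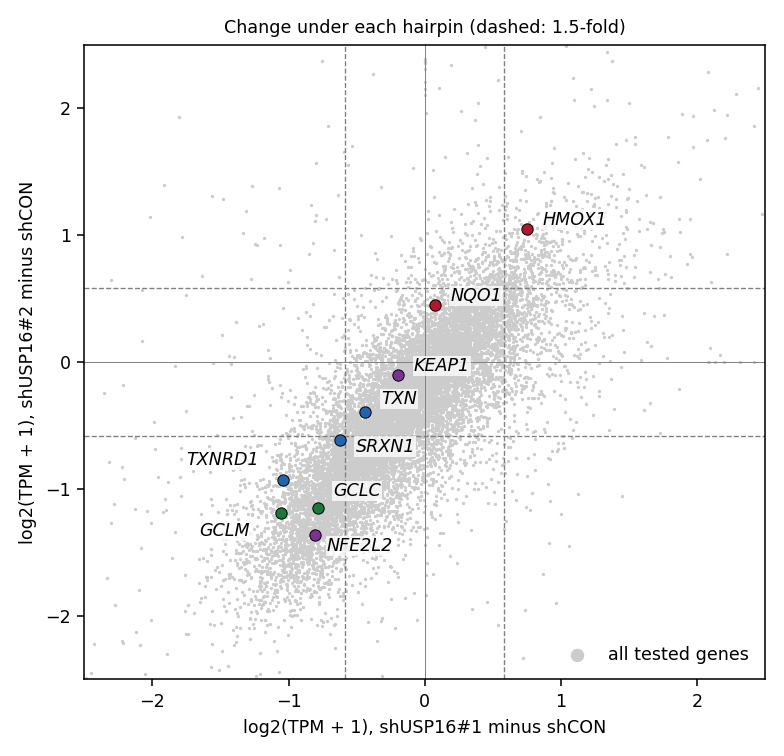
Change in log2(TPM + 1) with shUSP16#1 (horizontal) and shUSP16#2 (vertical) for the 9 genes over all tested genes in grey, coloured by role: regulators purple, glutathione synthesis green, thioredoxin and sulfiredoxin blue, quinone and heme red. Dashed lines mark 1.5-fold, and 207 genes lie outside the axes of 2.5 in either direction. The axes share the shCON library, and 5 members lie in the lower left corner while HMOX1 lies in the upper right.

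In the plot of one hairpin against the other, NFE2L2 and GCLC lay close together, 0.22 apart on the log2 scale, and GCLM lay 0.26 from TXNRD1 and 0.27 from GCLC. TXN and SRXN1 were 0.29 apart. The widest gap was between HMOX1 and GCLM, 2.87, the same rounded distance as between HMOX1 and NFE2L2. Outside the 9 genes, those with a mean of at least 5 TPM whose pair of changes lay nearest to that of GCLC were PTPN2, RNASEH2B, LIMA1, ABCB10 and TXNDC9. PTPN2, a tyrosine phosphatase, was at 49.7, 28.3 and 21.8 TPM in shCON, shUSP16#1 and shUSP16#2. TXNDC9, which holds a thioredoxin domain, was at 55.7, 31.8 and 24.7 TPM. Likeness was measured over the 2 changes alone, and 159 of the 9300 genes compared lay within 0.1 of GCLC, so many genes had its pattern.

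The order of levels, which TPM allows because it is per length, was TXNRD1, TXN, NQO1, KEAP1, SRXN1, NFE2L2, GCLC, GCLM and HMOX1 in shCON. Under shUSP16#1 TXN and TXNRD1 had changed places, and HMOX1 stood above GCLM. Under shUSP16#2 HMOX1, at 15.7 TPM, also stood above NFE2L2 at 11.0 TPM and GCLC at 9.83 TPM. The 5 genes with the highest levels were the same in all 3 libraries. With 1 library per condition there is no spread against which neighbours in this order could be compared.

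The changes of all genes followed the GC content of their transcripts, with Spearman rank correlations over genes of 0.54 for the first hairpin and 0.63 for the second. Genes are not independent replicates and share the libraries, so these values are descriptions. The median GC content of the 9 genes was 44.0%, against 49.9% over all tested genes. TXN (35.6%), GCLM (37.3%), NFE2L2 (39.8%) and GCLC (42.9%) were poorest in GC, and HMOX1 (58.1%) and KEAP1 (60.8%) were richest. Genes of GC content like that of NFE2L2 had median changes of -0.64 and -1.09, so NFE2L2 lay 0.16 and 0.28 on the log2 scale below its peers under the respective hairpins. GCLC lay 0.30 and 0.31 below genes of like GC content, GCLM 0.44 and 0.15, and TXNRD1 0.57 and 0.17. SRXN1, whose peers had median changes of 0.00028 and -0.12, lay 0.62 and 0.49 below them. KEAP1, with a change near 0 in a group of genes that were mostly higher, lay 0.36 and 0.22 below its peers. In contrast, NQO1 lay 0.55 and 1.21 above genes of like GC content, HMOX1 0.66 and 1.03, and TXN 0.16 and 0.69.

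Thus 6 of the 9 genes were below the median of genes of like GC content under both hairpins and 3 were above it under both, against 38.9% of all tested genes in each direction. The median of each of 50 GC bins was then subtracted and the median of all genes added back. By this measure 1 gene, SRXN1, was still 1.5-fold lower under both hairpins, against 12.2% of all genes, and 0 were higher, against 2.50%. The medians added back, -0.17 and -0.37, lower every value. Against its bin alone HMOX1 was past 1.5-fold under both hairpins, at 0.66 and 1.03. SRXN1 was past it with shUSP16#1 only, at -0.62 and -0.49. The same medians were added back in the counts of the lists given with the GC trend removed. When the median of all genes was instead taken off, 3 were lower (NFE2L2, GCLC and GCLM), against 11.2%, and HMOX1 was higher, against 9.74%. The part of GC content in the levels of these genes was not tested beyond these values.

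**Figure D3:**
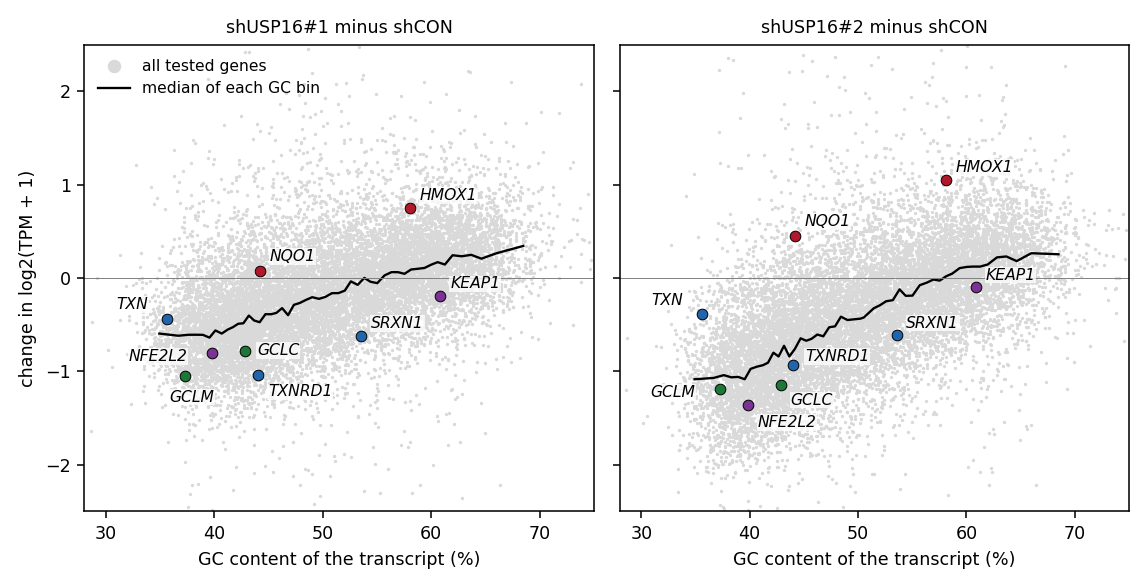
Change in log2(TPM + 1) against the GC content of the transcript (%) with shUSP16#1 (left) and shUSP16#2 (right), with the 9 genes coloured by role, all tested genes in grey and the median of each GC bin as a line. Of the genes with a GC content 190 lie outside the axes of at least 1 panel. NQO1, HMOX1 and TXN lie above the line in both panels and the other 6 genes below it.

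The counts of the pathway lists are to be read against the 4.03% of all tested genes that were higher and the 20.8% that were lower by the same rule. For counts after centring these shares were 9.74% and 11.2%, and with the GC trend removed they were 2.50% and 12.2%. Among 13 other regulators and partners of NRF2, 12 were tested, 0 were 1.5-fold higher and 2 were 1.5-fold lower under both hairpins, with a median change of -0.33 on the mean of both hairpins against -0.27 for all tested genes. The lower genes were BACH1 and CUL3. Neither was still 1.5-fold lower under both hairpins once the GC trend was removed, where 1 gene of the list, a different one, was lower. After centring 2 were lower and the median was -0.06. BACH1, the repressor of HMOX1 that competes with NRF2 for small MAF partners, was at 12.5 TPM in shCON, 6.42 TPM with shUSP16#1 and 3.2 TPM with shUSP16#2. CUL3, the scaffold of the ligase that KEAP1 joins, was at 38.7, 21.9 and 15.7 TPM. The ratio of HMOX1 to BACH1 was 0.565 in shCON, 1.95 with shUSP16#1 and 4.91 with shUSP16#2. Their transcripts differ in GC content, 58.1% for HMOX1 and 38.6% for BACH1. Whether the level of BACH1 bears on that of HMOX1 was not tested. The ratio of NFE2L2 to BACH1 was 2.40, 2.61 and 3.45. Both genes were lower under both hairpins, BACH1 by more, with changes of -0.86 and -1.69 against -0.80 and -1.36 for NFE2L2. BACH1 lies below genes of like GC content by 0.26 and 0.62 on the log2 scale.

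Of 25 other genes of glutathione synthesis and use, 22 were tested, and by any amount 11 were higher and 9 lower under both hairpins. At least 1.5-fold, 2 of the 22 were higher (against 4.03% of all genes) and 3 lower (against 20.8%), and the median change was 0.07. With the GC trend removed 0 were higher and 0 lower, and the entry of GGT1 that was used had no GC content. After centring the median was 0.34. The glutathione peroxidases GPX1 and GPX4, which use glutathione to reduce peroxides, were the higher genes. GPX1 was at 475.5 TPM in shCON, 821 TPM with shUSP16#1 and 763 TPM with shUSP16#2, and GPX4 at 620.5, 1068 and 939 TPM. Both lay above genes of like GC content, GPX1 by 0.55 and 0.46 and GPX4 by 0.64 and 0.47. The lower genes were SLC7A11, the cystine transporter that feeds glutathione synthesis (3.28, 1.49 and 1.01 TPM), GGCT (96.4, 61.8 and 58.9 TPM) and GGT1. GGT1 has 2 entries of that name: the more abundant was at 162.8, 87.2 and 74.2 TPM and the other at 11.2, 13.9 and 19.1 TPM, so its direction is uncertain. SLC7A11 is also in the c-Myc signature that the study used.

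In the thioredoxin and peroxiredoxin list, 12 of 13 genes were tested, with 1 higher, 1 lower and a median change of -0.11. With the GC trend removed 0 were higher and 0 lower, and after centring 0 were lower and the median was 0.16. PRDX5, a peroxiredoxin, was at 702 TPM in shCON, 1169 TPM with shUSP16#1 and 1147 TPM with shUSP16#2. It lay 0.59 above genes of like GC content under each hairpin. TXNIP, which binds and inhibits thioredoxin, was at 51.8, 30.8 and 20.9 TPM. Among the 10 genes of NADPH supply, all tested, 1 was higher and 2 lower, with a median of -0.27. With the GC trend removed 0 were higher and 0 lower, and after centring 0 were lower with a median of 0.00. The higher gene was IDH2, the mitochondrial isocitrate dehydrogenase, at 42.7, 67.2 and 68.3 TPM. It lay 0.62 and 0.74 above genes of like GC content. The malic enzymes ME1 (11.0, 5.94 and 5.77 TPM) and ME2 (21.4, 10.7 and 10.6 TPM) were the lower genes.

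In the list of quinone, carbonyl and xenobiotic detoxification, 13 of 20 genes were tested, with 1 higher, 1 lower and a median change of -0.11. After centring 0 were lower and the median was 0.16. With the GC trend removed 1 was higher and 1 lower, the lower one not being UGDH, and the median was -0.23. AKR1B10, an aldo-keto reductase and NRF2 target, was at 1.44 TPM in shCON, 5.81 TPM with shUSP16#1 and 7.2 TPM with shUSP16#2, and UGDH was at 26.9, 17.5 and 13.5 TPM. AKR1C1, AKR1C2 and AKR1C3, which are often used as readouts of NRF2, had means under the minimum of 1 TPM. In single libraries AKR1C3 was at 0.34 TPM in shCON, 2.12 TPM with shUSP16#1 and 0.25 TPM with shUSP16#2. Of the 8 iron and heme genes 7 were tested, with 1 higher, 1 lower and a median of 0.00. The number higher was 0 with the GC trend removed, where the median was 0.05, and 3 after centring, where the median was 0.27. BLVRB, a biliverdin reductase, was at 111, 178 and 179 TPM, and the transferrin receptor TFRC was at 244.7, 126.9 and 78.8 TPM. The ratio of FTH1, the ferritin heavy chain, to TFRC was 30.7 in shCON, 122 with shUSP16#1 and 136 with shUSP16#2. FTH1 itself was at 7501, 15494 and 10732 TPM, and its change of 0.52 with shUSP16#2 was below 1.5-fold, so it was not called. The ferritin light chain, FTL, stayed near the control level at 1157, 1178 and 1141 TPM, with changes of 0.03 and -0.02.

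The 14 other reported NRF2 targets were all tested, with 2 higher, 3 lower and a median change of -0.05. The number higher was 1 with the GC trend removed, where the median was 0.04, and 4 after centring, where it was 0.22. SLC6A9, a glycine transporter, was at 9.05 TPM in shCON, 21.9 TPM with shUSP16#1 and 23.3 TPM with shUSP16#2, and TSKU was at 19.8, 32.9 and 31.5 TPM. KIF21A (5.76, 2.49 and 1.34 TPM) and LRP8 (8.03, 3.91 and 3.21 TPM) were lower, as was SLC7A11, which stands in 2 lists. Of the 4 superoxide and peroxide enzymes, all tested, 1 was higher and 0 lower, with a median of -0.25. SOD2 has a second entry, at 71.1, 35.2 and 20.9 TPM in shCON, shUSP16#1 and shUSP16#2, which would be called lower by this rule. The count of 0 lower thus depends on the entry used. With the GC trend removed 0 were higher and the median was 0.03, while after centring it was 0.02. The higher gene was SOD3, an extracellular superoxide dismutase, at 2.13, 4.96 and 6.53 TPM. It lay 0.59 and 1.01 above genes of like GC content. Over all the pathway lists with each gene counted once, 91 of 104 genes were tested, 9 were higher and 12 were lower under both hairpins, against 4.03% and 20.8% of all genes, and the median change was -0.14. After centring 14 were higher and 7 lower, against 9.74% and 11.2% of all genes, and the median turned to 0.13. With the GC trend removed 2 were higher and 5 lower, against 2.50% and 12.2%. At a fold of 2 these numbers were 2 and 0, against 1.14% and 4.60%. The 9 genes described first, with a median of -0.62, are set beside this value without a test of the difference.

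**Figure D4:**
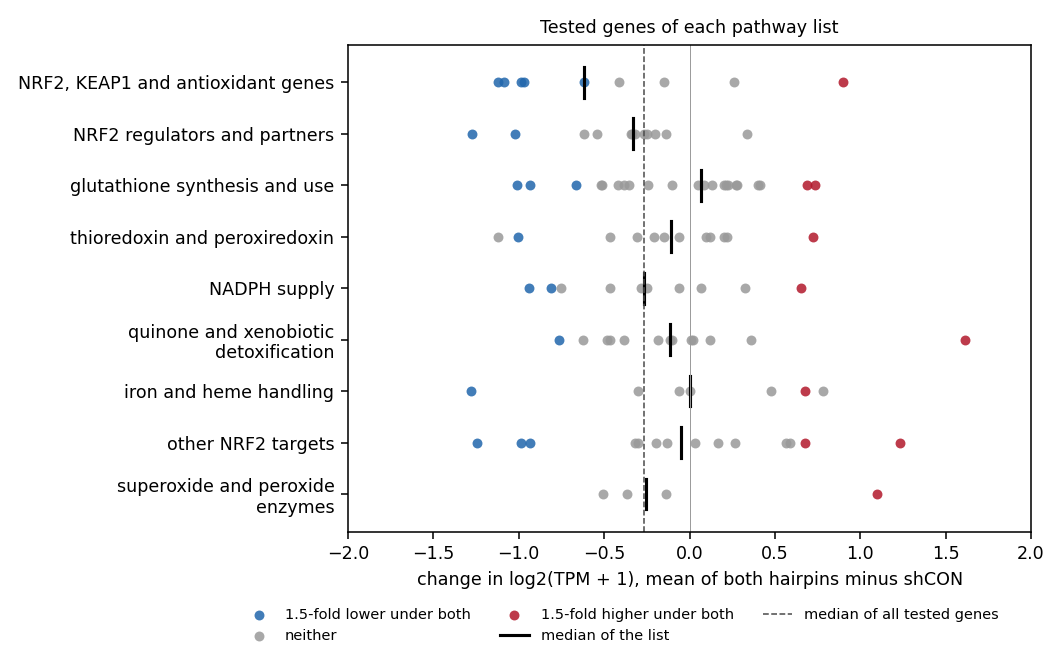
Change in log2(TPM + 1), mean of both hairpins minus shCON, for each tested gene of the 9 NRF2 and antioxidant genes (top) and of each pathway list. Blue points are 1.5-fold lower and red points 1.5-fold higher under both hairpins, black bars are list medians and the dashed line is the median of all tested genes, -0.27. Every list except the superoxide and peroxide enzymes has points called lower, and every list except the NRF2 regulators has a point called higher. Only the SOD2 entry used is drawn, and the other would be called lower.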

How the data were processed

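Total RNA of 3 PC3 cultures was made into libraries and sequenced by Majorbio. The authors deposited the values as TPM in a single table that also holds GO and KEGG annotation. The submitters' processing notes name CASAVA, HISAT2 and hg19. The quantification tool, annotation and strand setting are not given in the sources used here. The table holds no coordinates, and those printed are GRCh38, from GENCODE release 29, which matched 57308 of 59719 identifiers, or from RefSeq. A further 3 columns that repeat others were not used.

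Where a name was repeated, the entry with the highest mean was kept (1211 left out). A mean of 1 TPM or more was required, which 13637 names reached. Changes were computed from the deposited TPM as differences in log2(TPM + 1), and a gene was called when it passed 1.5-fold in the same direction under both hairpins. GC content came from the GENCODE transcript nearest in length to the deposited length and was had for 13296 tested genes (97.5%). Named genes were the 9 members and USP16, in each list up to 3 called genes in each direction ordered by the smaller of both changes, and the 5 genes nearest to GCLC. AGPS, FTH1, FTL, AKR1C1, AKR1C2, AKR1C3, SOD2, SECISBP2, EEFSEC and the second entry of GGT1 were named after their values were seen. The members and lists were chosen with earlier results of these data known, and the selenoprotein lists after their values were seen. Alternatives were a pseudocount of 0.1, centring, removal of the GC trend, either hairpin by itself, a fold of 2, protein-coding genes alone, and a minimum of 5 TPM or none. The calculations were tested on simulated data, with no pseudocount and control values of at least 5 TPM. The simulated control held no error, so the effect of an error in the shared shCON library was not tested. Values were computed in Python 3.11.15 with pandas 2.3.3, numpy 2.4.6 and scipy 1.17.1 and drawn with matplotlib 3.10.9.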

Additional observations from a re-analysis of the deposited data

How the results depend on the processing

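The median change of the 9 genes, -0.62 on the mean of both hairpins, was -0.63 with a pseudocount of 0.1, -0.35 after centring (subtracting the median of all genes), -0.56 after removal of the GC trend and -0.52 with a minimum of 5 TPM, which left GCLM out. The 5 genes lower under both hairpins became 3 after centring, 1 after removal of the GC trend and 1 at a fold of 2. The 1 higher gene became 0 at a fold of 2 and 0 with the GC trend removed, where the negative medians of all genes were added back. The remaining alternatives moved neither count by over 1.5 times. The change of TXN was 0.16 with the GC trend removed and that of KEAP1 0.12 when centred, and both have the opposite sign to the values reported, though neither passed 1.5-fold. Counts and medians of the pathway lists also moved with centring and removal of the GC trend, and those values are given beside each list. No paired analysis was possible because there was a single library of each kind. For the same reason no replicate could be left out, and a change was called moved against the SD of both hairpin values, which is not a replicate error. Depth is unknown, so the counting error behind GCLM, HMOX1 and other genes with few TPM is unknown too.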

Other observations

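TXNRD1, GPX1 and GPX4 are selenoproteins, which carry selenocysteine, and this group was looked at after the values of TXNRD1 and the peroxidases had been seen. Of 25 selenoprotein genes 20 were tested, and 2 were at least 1.5-fold higher under both hairpins and 3 lower. Over all tested genes 4.03% were higher and 20.8% lower by this rule. The median change of the selenoprotein genes was 0.18 with shUSP16#1 and -0.11 with shUSP16#2, against -0.17 and -0.37 for all tested genes. The higher genes were GPX1 and GPX4. Neither was still 1.5-fold higher with the GC trend removed, where the negative medians of all genes were added back. Both lay above genes of like GC content, GPX1 by 0.55 and 0.46 and GPX4 by 0.64 and 0.47. TXNRD1 was lower, as were SELENOI, an enzyme of phospholipid synthesis, at 10.6 TPM in shCON, 3.85 TPM with shUSP16#1 and 2.79 TPM with shUSP16#2, and DIO2, a thyroid hormone deiodinase, at 2.95, 0.94 and 0.07 TPM. Of the 5 genes that insert selenocysteine, 4 were tested and 0 passed in either direction. By any amount 3 of the 4 were lower and 1 was higher under both hairpins. SECISBP2, which binds the selenocysteine insertion element, was at 5.97, 3.99 and 3.55 TPM. EEFSEC was the higher one, at 8.3, 12.03 and 10.15 TPM.

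The deposited annotation puts 116 genes in the KEGG term Glutathione metabolism, of which 37 were tested, 5 were higher and 8 lower under both hairpins, with a median change of -0.10. Over all tested genes 4.03% were higher and 20.8% lower by this rule. With the GC trend removed 0 genes of the term were higher and 3 lower, against 2.50% and 12.2% of all genes. After centring 6 were higher and 6 lower, against 9.74% and 11.2%, and the median turned to 0.17. Without GCLC and GCLM 35 were tested, with 5 higher, 6 lower and a median of 0.00, and with the GC trend removed 0 higher, 3 lower and a median of -0.02. CHAC1, an enzyme that degrades glutathione, was at 8.58 TPM in shCON, 16.8 TPM with shUSP16#1 and 18.4 TPM with shUSP16#2. It lay 0.75 and 0.90 above genes of like GC content. The pseudogene GPX1P1, at 20.96, 36.2 and 35.6 TPM, was also higher, and its reads could be shared with GPX1. The term also holds genes of nucleotide and polyamine synthesis. RRM2, a subunit of ribonucleotide reductase, was at 162.7, 63.8 and 65.6 TPM, and ODC1, the first enzyme of polyamine synthesis, was at 350.6, 172 and 139 TPM. RRM1, the other subunit of ribonucleotide reductase, was at 61.1, 32.3 and 29.1 TPM.

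SOD2, the mitochondrial superoxide dismutase, has 2 entries of that name. The entry used was at 72.0 TPM in shCON, 48.9 TPM with shUSP16#1 and 51.9 TPM with shUSP16#2. The other was at 71.1, 35.2 and 20.9 TPM. The level of SOD2 under both hairpins, and whether it is called lower, thus depend on the entry read.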
